A study of Mus musculus with 82 samples.

Results

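Solute carriers (Slc genes) are the large superfamily of membrane proteins that move sugars, amino acids, ions, vitamins, nucleosides and drugs across the plasma membrane and the membranes of organelles. They are described here in the adult liver of BXD mice, the recombinant inbred strains bred from C57BL/6J (B6) and DBA/2J (D2). Members were all probes whose 1 gene symbol in the platform annotation began with Slc and a digit or with Slco, without Slc10a1, Slc15a2 and Slc27a5. The rule found 70 probes for 70 genes among 21936 probes on the array. Of those, 3290 probes carry 1 gene symbol and 18642 carry none, so solute carriers on unnamed probes were not analysed here. No Slco gene was among the 70. Slc9a3r1 fits the rule by its symbol but encodes a scaffold protein that binds a sodium/proton exchanger, and is not itself a transporter.

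The series holds 82 two-colour arrays, on which total RNA of one liver source and of another source were hybridised together. On 74 of them liver was hybridised with the embryo mix, RNA of B6 embryos at day 17.5 of gestation. These comprise 32 arrays of BXD males, 40 of BXD females and 2 of B6 males, from 17 BXD strains. A further 6 arrays set B6 liver directly against D2 liver in males and in females, and 2 set RNAs labelled as enriched from D2 and B6 liver against each other. The series text gives unfasted males of 10 to 20 weeks, 3 mice for each of 18 BXD strains, while the labels hold both M and F samples, read here as male and female. No mouse of any group carried a treatment or an engineered allele by the labels. Pooling of mice into 1 RNA was not given in the sources used here, so p-values measure the spread between these samples, which may be partly technical.

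Liver takes up nutrients, hormones and drugs from portal and arterial blood, and its transporters divide the work between the membrane facing the blood, the membrane facing bile, the mitochondria and the secretory compartments. Mitochondrial carriers of the Slc25 family feed the urea cycle and gluconeogenesis, which mature around and after birth. Several other solute carriers are best known from kidney, intestine, lung, brain or placenta, and a mix of embryo RNA contains tissues besides liver. In RNA of whole tissue, fewer cells of a type and less RNA per cell cannot be told apart.

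Values are log2 ratios of liver over embryo mix. The deposited values carry no stated log base and were read as log10, because 94 of them stop exactly at 2 or -2. All sizes and folds given here depend on this base. Both channels are labelled with the same dye, so direction was read from known genes. With channel 2 over channel 1, the median of 6 measured adult hepatocyte genes lay above that of 11 embryonic genes on 74 of 74 arrays, and the 32 pairs of forward and swapped arrays correlated from -0.895 to -0.556 before swapped values were turned. On the direct B6 and D2 arrays, unturned forward and swapped values correlated at 0.0187 in males and -0.133 in females, so orientation is much less visible there. One array of BXD11 females is titled a dye swap but lists liver in channel 1. It was read by channel order, correlated at 0.846 and 0.835 with the other BXD11 female arrays, and the counts of called members against the mix, for sex and between strains were the same without it. Signal intensities were not analysed here, so a ratio near 0 may belong to a gene with little signal in both RNAs. The embryo mix is 1 common reference, and its own spread lies outside every test.

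Among the 13 strains with arrays of both orientations in both sexes, 12 of 70 members were higher in adult liver than in the embryo mix and 11 were lower. A call required a limma adjusted p (Benjamini-Hochberg) under 0.05 and a mean log2 ratio of at least 1 in size. By the same rule 4.69% of all 21915 features were higher and 9.17% were lower. Among the 3269 features with a gene name, 8.53% were higher and 16.2% were lower, beside 17.1% and 15.7% of the solute carriers. The median log2 ratio was 0.12 over the 70 members and 0.07 over all features. A further 47 members were not called, 54 of 70 had the same sign in all 13 strains, and 15 had a mean within 0.2 of 0. The 23 called members had the same sign in all 13 strains, with limma adjusted p from 2.51e-16 to 1.90e-07. Calls near the size threshold depended on which arrays were taken: Slc1a1, Slc2a5, Slc17a1, Slc7a8, Slc7a9 and Slc22a4 fell short of it in forward arrays alone, Slc9a3r1 and Slc8a1 in swapped arrays alone, and Slc1a1 and Slc17a1 when each array was centred on its median.

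**Figure D1:**
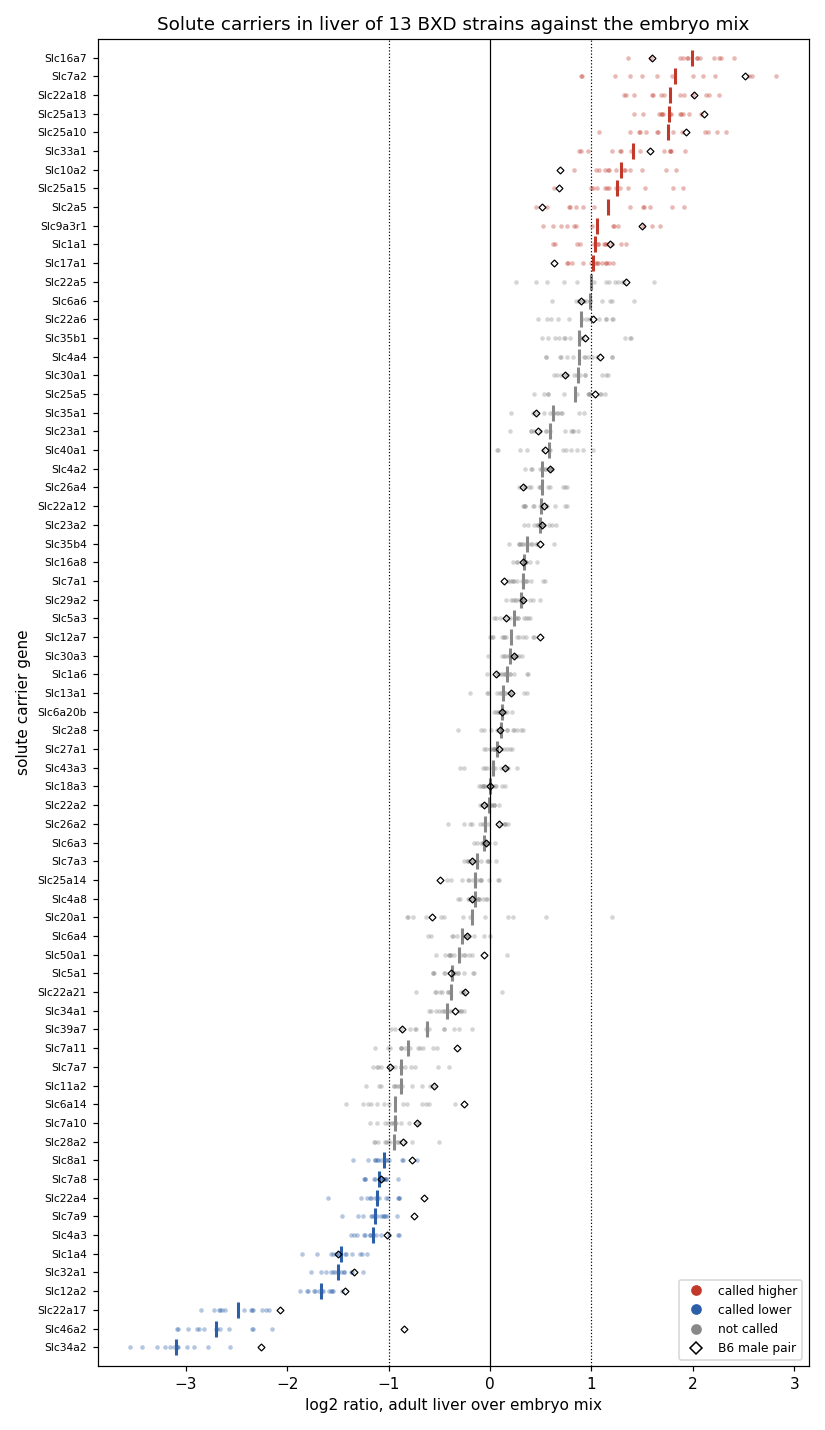
Log2 ratios of liver over embryo mix (horizontal axis) for the 70 solute carrier genes (vertical axis, ordered by mean). Pale points are the 13 BXD strains with both orientations, bars are their means, open diamonds are the B6 male pair of arrays, and dotted lines mark the size threshold of 1. Red marks the 12 members called higher, from Slc17a1 at 1.01 to Slc16a7 at 1.99, and blue the 11 called lower, down to Slc34a2 at -3.10.

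Carriers of the inner mitochondrial membrane were mostly on the liver side, with 3 of 5 higher and none lower. Slc25a13, the aspartate/glutamate carrier that supplies aspartate to the urea cycle, ran from 1.42 in BXD18 through a median of 1.78 to 2.08 in BXD6, a mean of 1.76 ± 0.18 (SD, n = 13 strains) or 3.40-fold. Slc25a10, the dicarboxylate carrier, ran from 1.07 to 2.33 around a median of 1.66, with a mean of 1.75 ± 0.38. Slc25a15, which exchanges ornithine for citrulline in the urea cycle, ran from 0.63 in BXD31 to 1.90 in BXD11, with a mean of 1.25 ± 0.34. All 13 strains were above 0 for each of these carriers, and the spread between strains was smallest for Slc25a13. The ADP/ATP carrier Slc25a5 had a mean of 0.84, just short of the size threshold, and Slc25a14, of the uncoupling protein branch, stood at -0.15.

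All role groups were set by family number alone, so a group can hold members that carry other substrates. Among 17 members of the amino acid families, which include the purine transporter Slc43a3, 2 were higher in liver and 3 were lower. Slc7a2 encodes the cationic amino acid transporter of liver, which brings in arginine, lysine and ornithine. It ran from 0.90 in BXD31 through a median of 1.80 to 2.82 in BXD15, with a mean of 1.82 ± 0.63 or 3.53-fold. No other called member had so wide a spread between strains. Slc1a1, a high-affinity glutamate transporter, ran from 0.62 to 1.34 around a median of 1.06, with a mean of 1.03 ± 0.22. The members called lower were Slc1a4, a neutral amino acid exchanger, at -1.47 ± 0.18 (lowest -1.85, median -1.50, highest -1.22), Slc7a9, the cystine transporter of kidney and intestine, at -1.14 ± 0.14 (-1.46, -1.11 and -0.92), and Slc7a8, a light-chain subunit for large neutral amino acids, at -1.10 ± 0.10 (-1.24, -1.08 and -0.91). The 13 strains lay close together for each of them, but for Slc7a8 forward arrays averaged -0.81 and swapped arrays -1.38, and the 4 forward-only strains ran from -0.44 to -0.10. Of the other carriers of cationic amino acids, Slc7a1 stood at 0.32 with 13 of 13 strains above 0, Slc7a3 at -0.12 and the exchanger Slc7a7 at -0.88 with 13 of 13 strains below 0, none of them past the size threshold, whereas the taurine transporter Slc6a6, at 0.99, lay just under the threshold. 

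Sugar, monocarboxylate and vitamin carriers included the member with the largest mean ratio on the liver side. Slc16a7, a proton-coupled transporter of pyruvate, lactate and ketone bodies, ran from 1.36 in BXD21 through a median of 2.04 to 2.40 in BXD15, with a mean of 1.99 ± 0.28 or 3.98-fold. Every strain mean exceeded the size threshold, though the lowest male value was 0.61. Forward arrays averaged 2.35 and swapped arrays 1.63. Over swapped arrays Slc7a2 at 1.80, Slc22a18 at 1.74 and Slc25a13 at 1.66 stood higher, so the first rank of Slc16a7 depended on orientation. Slc2a5, the fructose transporter, ran from 0.46 in BXD19 to 1.91 in BXD6 around a median of 1.02, with a mean of 1.16 ± 0.48, so strains fell on both sides of the threshold. Slc46a2, a thymic stromal relative of the folate transporters, was at the other end, from -3.09 in BXD6 through a median of -2.70 to -2.15 in BXD16, with a mean of -2.71 ± 0.29. The vitamin C transporters Slc23a1 and Slc23a2 had means of 0.59 and 0.50. Of the other sugar carriers, the myo-inositol transporter Slc5a3 stood at 0.24, Slc2a8 at 0.11 and the intestinal glucose transporter Slc5a1 at -0.37.

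Carriers of organic ions and drugs split, with 2 of 9 higher and 2 of 9 lower. Slc22a18, an imprinted gene of the organic cation transporter family, ran from 1.32 to 2.26 around a median of 1.72, with a mean of 1.77 ± 0.31 or 3.41-fold. Slc17a1, a sodium phosphate and urate transporter of liver and kidney, ran from 0.76 to 1.21 around 1.05, with a mean of 1.01 ± 0.16. Leaving out BXD2 brought it under the size threshold. Slc22a17, a receptor for lipocalin 2 and best known in brain, ran from -2.86 in BXD15 through a median of -2.43 to -2.18 in BXD2, with a mean of -2.48 ± 0.22. All 13 strains of Slc22a17 lay beyond -2.

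The carnitine and organic cation transporters Slc22a5, Slc22a21 and Slc22a4 are direct neighbours in the RefSeq gene table of mouse assembly GRCm38.p6, with 0 protein-coding genes between them, and were singled out for their position after their values were seen. Slc22a5, the main carnitine importer, ran from 0.25 in BXD28 through a median of 1.15 to 1.61 in BXD12 and had a mean of 0.99, the first member below the size threshold. Slc22a21, a carnitine transporter of testis, had a mean of -0.38 with 12 of 13 strains below 0. Slc22a4, which carries ergothioneine, had a mean of -1.12 ± 0.19, from -1.60 to -0.90. The means of the neighbours stood on different sides of 0, but orientation mattered for both lower ones. Slc22a21 was at -0.07 over forward and -0.69 over swapped arrays. Slc22a4 was at -0.52 over forward and -1.71 over swapped arrays, and in the 4 strains with forward arrays alone it ran from -0.84 to 0.50. These genes are paralogs, and how far each probe also binds the transcripts of the others was not tested.

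Of 13 inorganic ion carriers, 1 was higher and 4 were lower, where lower calls also outnumbered higher ones over all features. Slc34a2, the sodium phosphate cotransporter of lung and intestine, ran from -3.55 in BXD6 through a median of -3.09 to -2.57 in BXD15, with a mean of -3.10 ± 0.26, or 8.56-fold lower in liver. This was the lowest ratio of the 70 members. Slc12a2, a sodium, potassium and chloride cotransporter of secretory epithelia, had a mean of -1.67 ± 0.12 (lowest -1.88, median -1.65, highest -1.46). Slc4a3, an anion exchanger of heart and brain, had -1.16 ± 0.15 (-1.37, -1.18 and -0.90), and Slc8a1, the cardiac sodium/calcium exchanger, -1.05 ± 0.16 (-1.36, -1.08 and -0.72). The member called higher in this group was the scaffold Slc9a3r1, from 0.52 to 1.67 around 1.01, with a mean of 1.06 ± 0.38. Without Slc9a3r1, 11 of 69 members were higher. Other phosphate carriers stood nearer 0, the renal Slc34a1 at -0.42 and the ubiquitous Slc20a1 at -0.18 with strains from -0.82 to 1.21.

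Lipid-related and vesicular carriers were few. Slc33a1 brings acetyl-CoA into the endoplasmic reticulum and ran from 0.88 in BXD32 to 1.92 in BXD15 around 1.39, with a mean of 1.41 ± 0.36. Slc10a2, the apical bile acid transporter of ileum and bile ducts, ran from 0.82 in BXD31 through 1.24 to 1.83 in BXD12, with a mean of 1.29 ± 0.28, and from 0.53 to 0.94 in the 4 forward-only strains. Slc32a1, which loads inhibitory transmitters into synaptic vesicles, ran from -1.77 to -1.25 around a median of -1.50, with a mean of -1.50 ± 0.14, while the acetylcholine loader Slc18a3 stood at -0.01. None of 5 metal carriers and none of 5 nucleoside and nucleotide-sugar carriers was called, all 10 having a limma adjusted p under 0.05 but a ratio under the threshold. Their largest ratios were those of the zinc exporter Slc30a1 at 0.87, the iron importer Slc11a2 at -0.88, Slc35b1 at 0.88 and the nucleoside cotransporter Slc28a2 at -0.94. Other transporter families gave 5 higher and 1 lower of 19 ABC transporters, and 0 higher and 1 lower of 6 aquaporins.

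Promoter sequence was at hand for 58 of the 70 members, which had a window in the RefSeq promoter table of assembly GRCm38.p6, from 250 bases before to 50 after the transcription start. The bile acid transporter Slc10a2 and the phosphate transporter Slc34a2 are shown because Slc10a2 was the called higher member whose window held the motif searched, Slc34a2 had the lowest ratio of all members, and the windows differ in base composition. Slc10a2 lies on the minus strand at chr8:5105238-5105537 and Slc34a2 on the plus strand at chr5:53049103-53049402, each window printed 5′ to 3′ along its gene. Capitals mark the letters GTTAAT, the core of the site of the hepatocyte nuclear factor HNF1, on either strand.
Slc10a2: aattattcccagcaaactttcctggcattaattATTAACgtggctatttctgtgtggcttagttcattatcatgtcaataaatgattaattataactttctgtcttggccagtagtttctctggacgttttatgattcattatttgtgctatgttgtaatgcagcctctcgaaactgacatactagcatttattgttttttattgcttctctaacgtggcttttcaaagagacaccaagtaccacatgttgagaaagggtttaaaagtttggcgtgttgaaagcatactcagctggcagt
Slc34a2: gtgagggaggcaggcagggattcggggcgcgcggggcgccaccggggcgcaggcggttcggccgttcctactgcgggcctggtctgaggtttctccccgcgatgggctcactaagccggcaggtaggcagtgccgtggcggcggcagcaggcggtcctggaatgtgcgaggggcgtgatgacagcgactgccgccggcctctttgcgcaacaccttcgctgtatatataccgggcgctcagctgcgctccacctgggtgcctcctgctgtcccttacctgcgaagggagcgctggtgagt
GC content was 36% in the Slc10a2 window and 68.7% in the Slc34a2 window, against a median of 52.7% over all windows. Slc10a2 held 1 match, on the minus strand of the window at position -217 from the start, and Slc34a2 held 0. The motif occurred in 5 of the 58 members with a window, among them 1 of 10 called higher and 0 of 10 called lower members. A member was counted if any of its windows matched. Of all 32851 windows 7.10% held the motif, a share per window and not per gene. Such a count is of letters and says nothing of binding.

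B6 males, measured on 1 forward and 1 swapped array against the same mix, gave a sign equal to that of the 13-strain mean for 69 of 70 members. Their mean lay outside the range of the 13 BXD male values for 11 members. The same count was not made over all features, so 11 of 70 is not read as a trait of the members. Slc46a2 stood out, at -0.85 on each of the B6 arrays against -4.04 to -1.93 in the 13 males. The forward-only strains BXD8 and BXD9 were also high for Slc46a2 among BXD strains, with means of -1.38 and -0.81. Slc34a2 was -2.13 and -2.40 on the B6 arrays against -3.66 to -2.90 in the 13 males. With the forward-only strains included, the highest of 17 male values of Slc34a2 was -2.48. Over both sexes BXD8 and BXD9 had Slc34a2 means of -2.30 and -2.26. Slc10a2, at 0.69, Slc2a5, at 0.51, and Slc17a1, at 0.63, lay below the lowest of those 13 males, and Slc25a13, at 2.11, lay above the highest. Among the males of the 4 forward-only strains, BXD8 at 0.35, BXD14 at 0.36 and BXD27 at 0.65 were lower still for Slc10a2. With 1 RNA pair for B6 males, no test was made of these gaps.

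Some markers of other tissues were called lower in liver, where 9.17% of all features and 16.2% of the named features were lower. Of the lists for other cell types, 3 of 5 measured red blood cell genes, 2 of 2 muscle genes, 1 of 4 kidney genes, 1 of 4 neuron genes, 1 of 2 bone and cartilage genes and 0 of 1 intestine genes were lower in liver, and none was higher. Medians were -1.19 for red blood cells, -4.47 for muscle, -0.03 for kidney and -0.03 for neurons, with adult hepatocyte genes at 3.57. Some genes of the lists for other cell types stood above 0, the highest being the neuron gene Syn1 at 0.99, which was not called. The part of these marker genes in the ratios of the solute carriers was not tested.

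Females and males were compared over 34 values, 1 per sex for each of 17 strains, with strain as a block. Differences were small: 13 members were higher in females and 12 were lower at a limma adjusted p under 0.05, where 16.5% of all features were higher and 17.2% were lower. The members' shares were 18.6% and 17.1%, and those of the named features 22.8% and 13.8%. The largest difference was 0.84 on the log2 scale, or 1.79-fold, and the ranges of the 17 female and 17 male values overlapped for each of the 25 members.

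**Figure D2:**
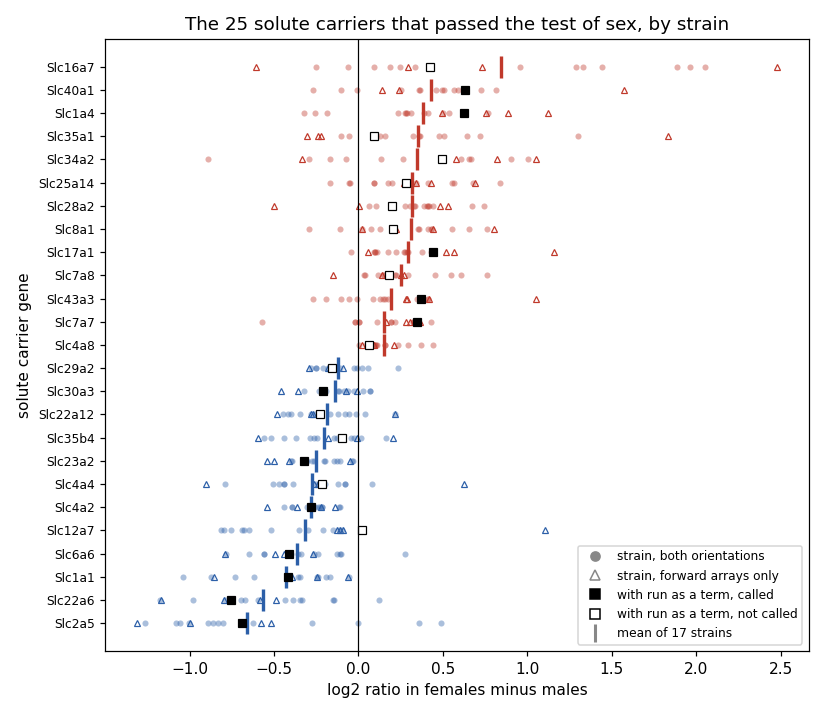
Female minus male log2 ratio (horizontal axis) for the 25 solute carriers called for sex (vertical axis). Circles are the 13 strains with both orientations, triangles the 4 forward-only strains, bars the mean of 17 strains, and squares the estimate with accession run as a term, filled where it was still called. Slc2a5 and Slc22a6 lie farthest to the left at -0.66 and -0.57, and Slc16a7 farthest to the right at 0.84 with an open square at 0.42.

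Members lower in females included the transporters of fructose and of organic anions. For Slc2a5 the 17 female values ran from -0.08 through 1.06 to 2.16 and the male values from 0.74 through 1.67 to 2.54, a difference of -0.66 ± 0.53 (SD of 17 strain differences), lower in females in 15 of 17 strains (limma adjusted p = 4.30e-04). Slc22a6, the renal organic anion transporter, ran from 0.07 through 0.56 to 1.13 in females and from 0.61 through 1.05 to 1.73 in males, a difference of -0.57 ± 0.35 in 16 of 17 strains (limma adjusted p = 9.42e-05). The median female value of Slc22a6 lay below the lowest male value, while the ranges of Slc2a5 overlapped widely. The urate transporter Slc22a12 was lower by a smaller margin, -0.19 ± 0.22, in 14 of 17 strains.

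The glutamate transporter Slc1a1 was lower in females in 17 of 17 strains, from 0.42 to 1.26 (median 0.76) against 0.76 to 1.78 (median 1.21) in males, a difference of -0.43 ± 0.30 (limma adjusted p = 2.14e-04). The taurine transporter Slc6a6 was lower in 16 of 17 strains, by -0.37 ± 0.27. The chloride/bicarbonate exchanger Slc4a2, which serves bile secretion, was lower in 17 of 17 strains at -0.28 ± 0.12, and had the smallest adjusted p of the members (limma, 4.48e-05). The vitamin C transporter Slc23a2 was likewise lower in 17 of 17 strains, at -0.25 ± 0.16. In these last genes the sign was shared by the 17 strains, while the size ran from -0.54 to -0.11 for Slc4a2 and from -0.54 to -0.03 for Slc23a2.

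The remaining members lower in females were the sodium bicarbonate cotransporter Slc4a4 at -0.28 ± 0.34, the potassium chloride cotransporter Slc12a7 at -0.32 ± 0.46, the nucleotide-sugar carrier Slc35b4 at -0.20 ± 0.24, the synaptic zinc transporter Slc30a3 at -0.14 ± 0.15 and the nucleoside transporter Slc29a2 at -0.12 ± 0.14. Slc12a7 depended on how strains were taken. It was lower in 16 of 17 strains, but BXD27 had 1.10 in the other direction, the 4 forward-only strains averaged 0.19, and the estimate with accession run as a term was 0.02. Its call was lost without BXD5, without BXD12 and without BXD19 (limma adjusted p from 0.051 to 0.053). Slc29a2 lost its call without BXD19 (limma adjusted p = 0.051).

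On the female side, Slc16a7 had the largest difference. Female values ran from 1.84 through 2.57 to 3.55 and male values from 0.61 through 1.80 to 3.65, a difference of 0.84 ± 0.91 in 14 of 17 strains (limma adjusted p = 0.00353). Strains disagreed widely, from -0.61 in BXD9 to 2.47 in BXD27. The iron exporter Slc40a1, or ferroportin, was higher in 14 of 17 strains by 0.43 ± 0.41, and the neutral amino acid exchanger Slc1a4 in 14 of 17 by 0.38 ± 0.39. For Slc40a1 the strain differences ran from -0.27 in BXD12 to 1.57 in BXD27.

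Of the smaller differences, Slc28a2 (0.32 ± 0.29), Slc17a1 (0.29 ± 0.28) and Slc7a8 (0.25 ± 0.23) were higher in females in 16 of 17 strains, and the calcium exchanger Slc8a1 in 15 of 17 (0.31 ± 0.31). Slc25a14 was higher in 14 of 17 strains, by 0.32 ± 0.29. The sodium bicarbonate exchanger Slc4a8, the thirteenth member and outside the naming rule, was higher in 17 of 17 strains, by 0.15 ± 0.12. The CMP-sialic acid carrier Slc35a1 (0.35 ± 0.56), Slc34a2 (0.35 ± 0.54), the purine transporter Slc43a3 (0.19 ± 0.31) and the cationic amino acid exchanger Slc7a7 (0.15 ± 0.24) passed the test less securely. Leaving out a strain ended the call in 8 of 17 cases for Slc35a1, 10 for Slc34a2, 12 for Slc43a3 and 12 for Slc7a7. Slc34a2, Slc43a3, Slc7a7 and Slc29a2 were also not called after quantile normalization, in forward arrays alone or in swapped arrays alone. By role, 4 of 5 nucleoside and nucleotide-sugar carriers were called, 2 in each direction, and none of 3 bile acid and lipid carriers. Over all features 16.5% were higher in females and 17.2% lower. None of those 4 carriers was called with accession run as a term, and groups this small are not read as a trait of the role.

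Samples fall into runs of consecutive accessions that hold unequal numbers of each sex, and 5 runs hold both. Run is not a batch by any label. With run as a term, over 40 values with 1 per strain, sex and replicate number, 13 members were called, against 27 over the same values without it. Of the 25 members above, 12 were called with the same sign: Slc40a1, Slc1a4, Slc17a1, Slc43a3, Slc7a7, Slc30a3, Slc23a2, Slc4a2, Slc6a6, Slc1a1, Slc22a6 and Slc2a5. Within runs, Slc22a6 was lower in females in 5 of 5, from -0.91 to -0.58, and Slc40a1 was higher in 5 of 5, from 0.35 to 1.57. Slc16a7 was 0.42 with the term (limma adjusted p = 0.262) and from 0.00 to 2.47 within runs. In the 4 forward-only strains alone, no member and no feature was called.

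Among marker lists, 1 of 6 adult hepatocyte genes was higher in females, 1 of 5 red blood cell genes was lower, and 3 of 4 neuron genes were called, 1 higher and 2 lower. Median differences were 0.10, 0.01 and -0.19. Their part in the sex differences was not tested.

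Differences between strains were tested over 26 values, a female and a male value for each of the 13 strains, with sex as a term. Of 70 members, 1 was called at a limma adjusted p under 0.05, beside 1.20% of all features, and 17 had an unadjusted p under 0.05, a share of 24.3% beside 13.8% of all features and 17.4% of the named ones. The SD of strain means had a median of 0.18 over the members and 0.15 over all features.

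The called member was Slc7a2, the cationic amino acid transporter (F = 7.30, limma adjusted p = 0.0300). Its 26 values ran from 0.64 in BXD18 females to 3.05 in BXD15 males. Strain means were highest in BXD15 at 2.82, BXD21 at 2.58 and BXD6 at 2.56, and lowest in BXD31 at 0.90 and BXD16 at 0.91, a span of 1.92 or 3.79-fold. The SD of strain means was 0.63. The residual SD was 0.36 after the strain and sex terms, so it leaves out the mean difference between the sexes of a strain. In BXD15, BXD21 and BXD6 both sexes were at 2.42 or above, and in BXD31 and BXD16 both sexes were at 1.10 or below. Males and females lay farther apart in some other strains, such as BXD5 with 1.07 in females and 2.53 in males. Females were below males in 14 of 17 strains, by a mean of 0.39 that did not pass the test of sex. The female minus male mean was -0.59 over the 13 strains tested here and 0.26 over the 4 forward-only strains. Over 40 values, with 1 per strain, sex and replicate number, the difference passed (limma adjusted p = 0.0377), but with run as a term it did not (0.871). The call between strains was lost without BXD11, BXD15, BXD16 or BXD31 (limma adjusted p from 0.052 to 0.11), in forward arrays alone (0.080), in swapped arrays alone (0.153), after quantile normalization (0.057) and without the sex term (0.522).

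**Figure D3:**
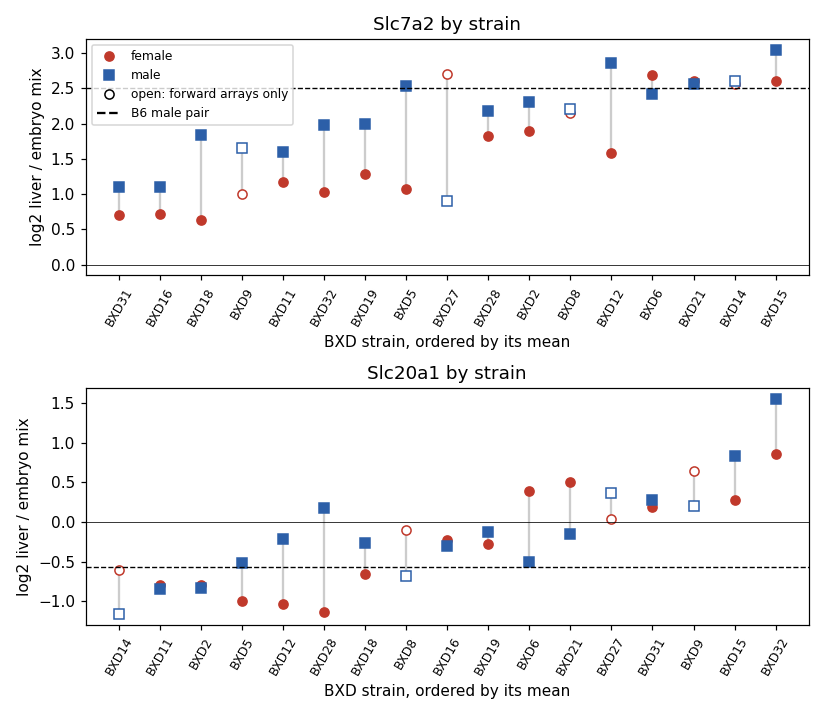
Log2 ratio of liver over embryo mix (vertical axes) for Slc7a2 and Slc20a1 in each of 17 BXD strains, ordered by strain mean (horizontal axes). Circles are females, squares males, open symbols the 4 strains with forward arrays alone, and dashed lines the B6 male pair at 2.51 for Slc7a2 and -0.57 for Slc20a1. Slc7a2 spans 0.90 to 2.82 and Slc20a1 -0.82 to 1.21 over the means of the 13 strains tested.

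The members next in F did not pass the test. Slc33a1, the acetyl-CoA carrier (limma adjusted p = 0.0911), spanned 0.88 in BXD32 to 1.92 in BXD15. The nucleotide-sugar carrier relative Slc35b1 (0.0996) spanned 0.51 in BXD31 to 1.39 in BXD11, and BXD11, BXD15 and BXD16 lay apart from the other tested strains, with 1.31 or more in each sex against 1.15 or less. The phosphate transporter Slc20a1 (0.103) had a wider span than Slc7a2, 2.03 or 4.08-fold, from -0.82 in BXD11 and -0.81 in BXD2 to 1.21 in BXD32. BXD32 was high in both sexes, with 0.86 in females and 1.55 in males, and without it the SD of strain means fell from 0.60 to 0.45. Slc22a5 (0.153) spanned 0.25 in BXD28 to 1.61 in BXD12. Leaving out BXD6 brought Slc33a1 (0.038) and Slc20a1 (0.042) under the threshold, leaving out BXD28 brought Slc20a1 (0.049), and leaving out BXD32 brought Slc35b1 (0.043).

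Parental livers were compared on the 6 direct arrays, averaged to 4 values, of which 2 were female and 2 male. In each sex the replicate 2 value came from a swapped array alone, while the other value averaged both orientations. A dye effect may therefore remain in the mean of the 4 values. The SD given after ± is that of the 4 values and leaves out the spread between orientations of the same replicate. No member of 70 was called at a limma adjusted p under 0.05, beside 0.178% of all features (39 of 21915), and 9 members had an unadjusted p under 0.05, a share of 12.9% beside 13.2% of all features. Replicate numbers in the labels do not say whether an RNA came from other mice. The members with the smallest p are described because the naming rule asks for them, not as differences that passed the test.

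Slc20a1 had a B6 over D2 ratio of -0.42 and -0.65 on the forward and swapped arrays of male replicate 1, -0.31 and -0.83 on those of female replicate 1, -0.63 on the female replicate 2 array and -0.64 on the male replicate 2 array. The mean of the 4 values was -0.60 ± 0.05 (limma adjusted p = 0.0768), with D2 above B6 on 6 of 6 arrays. The enriched arrays gave -0.61 and -0.53. Slc7a2 had the opposite sign, with B6 above D2 on 6 of 6 arrays. Its values were 0.70 and 0.55 for male replicate 1, 1.01 and 0.92 for female replicate 1, and 0.90 and 0.56 for the second female and male arrays. The mean was 0.76 ± 0.20 (limma adjusted p = 0.0899), and the enriched arrays gave 0.33 in males and 1.26 in females. Of the 6 arrays without enrichment, the female ones all lay above the male ones for Slc7a2.

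Slc7a7, an exchanger for cationic amino acids, ran from -0.52 to -0.25 on the 6 arrays with a mean of -0.41 ± 0.03 (limma adjusted p = 0.160). Slc2a5 ran from -0.56 to -0.20 with a mean of -0.41 ± 0.09 (0.183), and the enriched arrays stood lower, at -1.01 and -0.97. Slc25a15, the ornithine carrier, ran from -0.65 to -0.24 with a mean of -0.50 ± 0.11 (0.132). These 3 genes were below 0 on 6 of 6 arrays. On the enriched arrays Slc25a15 was above 0, at 0.33 in males and 0.16 in females.

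**Figure D4:**
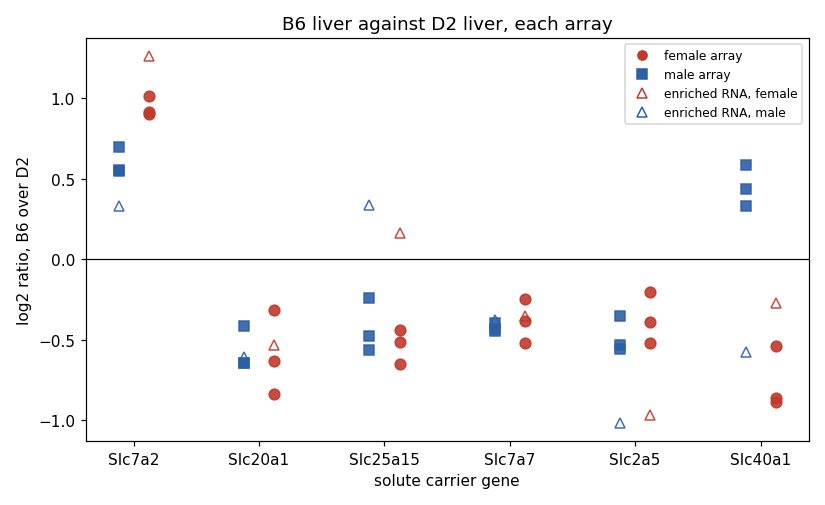
Log2 ratio of B6 over D2 liver (vertical axis) on each direct array for 6 solute carriers (horizontal axis). Circles are female arrays, squares male arrays, and open triangles the enriched RNAs. Slc7a2 lies above 0 on all 6 arrays and Slc20a1, Slc7a7 and Slc2a5 lie below it on all 6, as does Slc25a15 apart from its enriched triangles, while Slc40a1 has female arrays at -0.54 or below and male arrays at 0.33 or above.

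For 15 of 70 members the female values and the male values had opposite signs. How many of all features did so was not counted, so this number is not read as a trait of the members. The widest gap was that of ferroportin, Slc40a1, with -0.71 and -0.86 in females and 0.46 and 0.44 in males. In the test of the sex term Slc40a1 had an unadjusted p of 7.35e-04 and a limma adjusted p of 0.405, and no member passed. The enriched arrays of Slc40a1 gave -0.27 in females and -0.58 in males, so the male enriched array had the sign of the female arrays.

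Slc7a2 and Slc20a1 were among the 5 members with the largest F between strains and the 5 with the smallest p between parents. The parental arrays share no array with the strain comparison. Slc7a2 was 2.51 in the B6 male pair against the mix, between the BXD male values, and Slc20a1 was -0.57. In all, 40 of 70 members were called in at least 1 comparison and 30 in none. Both against the embryo mix and for sex 8 were called, and 1 both against the mix and between strains. Such overlaps were not counted over all features, so they are not read as a trait of the members.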

How the data were processed

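Liver RNA was measured on two-colour arrays, and the deposited files hold 1 log ratio per probe and array, read as log10 and multiplied by 3.32 to log2. How the authors scanned, background-corrected and normalized the arrays was not given in the sources used here. Array medians lay between -0.0016 and 0.115 (log2). No value was missing and 2388 were exactly 0. Probe symbols came from GEO's platform annotation and promoters from RefSeq.

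Swapped arrays were multiplied by -1, probes of 1 symbol were averaged, and values were averaged per strain and sex over both orientations. Fits over all 21915 features used limma 3.58.1 in R 4.3.3 with Benjamini-Hochberg adjustment at 0.05. They were 13 strain means against 0 (also at least 1 in size), 17 strains blocked for sex, and an F test over strains with sex. The mean of the 4 parental values was tested against 0 with no other term. A separate fit of the same 4 values had a sex term and tested the sex difference of the parental ratio. The scripts were tested on simulated data with independent noise and no effect of orientation, run or replicate number. Recovery of planted changes was required for the fits against the mix, for sex and between strains, but not for the parental fit. The number of arrays limits precision.

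Members, role groups and lists were chosen with earlier results of these data known. Named were the 12 highest and 12 lowest members called against the mix with the sign in at least 90% of strains, the 12 largest sex differences in each direction, called members and the 5 largest F between strains, and the 5 smallest p between parents. Alternatives changed the scaling, variance model, orientation, strains, sex, threshold, log reading, run and replicate block.

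Parental arrays share replicate numbers between sexes, but only replicate 1 has both orientations. Deviations of same-numbered male and female values correlated at 0.325 across features with 2 pairs. Because the replicate numbers also differ in orientation, this correlation cannot decide whether the numbers are pairs. The main parental fit took the values as independent, and a replicate block was used as an alternative.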

Additional observations from a re-analysis of the deposited data

Results flagged for a closer look

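In 15 members the 2 female and the 2 male values of B6 over D2 had opposite signs, a count not made over all features. The female minus male difference was -1.24 for Slc40a1, 0.80 for Slc9a3r1, -0.73 for Slc5a3, 0.72 for Slc10a2, -0.71 for Slc25a10, 0.61 for Slc22a17, 0.55 for Slc22a6 and -0.53 for Slc25a13. Smaller gaps were -0.37 for Slc25a5, 0.37 for Slc1a1, 0.25 for Slc33a1, -0.20 for Slc12a7, -0.19 for Slc12a2, 0.18 for Slc6a6 and -0.17 for Slc1a4. The difference between sexes was itself tested with limma, and the smallest adjusted p of a member was 0.405, for Slc40a1, so none passed.

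On the enriched arrays, which entered the parental comparison in 1 alternative alone, the ornithine carrier Slc25a15 had a mean B6 over D2 ratio of 0.25, opposite in sign to the 6 other arrays. These are 1 male and 1 female array, both swapped, with no control of their own.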

How the results depend on the processing

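The 23 members called against the embryo mix numbered 19 to 27 under changes of scaling, orientation, sex, strains and variance model, and 22 to 25 without a strain. Features called were 2855 to 3496 under those changes and 2988 to 3094 without a strain, against 3037. Members called were 64 with no size threshold and 0 under a log2 reading of the deposited values (features 18386 and 205 of 21915). The 25 members called for sex numbered 18 to 25 under scaling and orientation, and 21 to 26 without a strain. They were 27 with 1 value per strain, sex and replicate number, 13 with run as a term and 0 in the 4 forward-only strains. Features called in these last settings were 8025, 4695 and 0, against 7381. Slc12a7 turned to 0.19 in those 4 strains and 0.023 with run. Between strains, 1 member became 0 in forward arrays, 0 in swapped arrays, 0 with no sex term, 20 with all 17 strains, and 0 to 3 without a strain (features 164, 101, 73, 5589 and 139 to 278, against 262). Quantile normalization called 1 member, Slc20a1 (0.048), and not Slc7a2. For B6 against D2, 0 members became 4 with the enriched arrays as values, 4 with each array a value and a dye term, and 5 with swapped arrays alone, an alternative added after the data were seen (features 510, 274 and 683, against 39). Without one parental value the count stayed at 0, with 0 to 29 features. With the replicate block, 25 members were called for sex and 0 for the parents (9 features). Other settings of the parents gave 24 features by quantile normalization and 0 with a robust trend.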
